A study of Mus musculus with 24 samples.

Results

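The NLRP3 inflammasome and the interleukin-1 family were described here through 10 genes, Nlrp3, Pycard, Casp1, Casp4, Gsdmd, Il1b, Il1a, Il1rn, Il18 and Tnf. They were taken by symbol from a counts table of 43430 Ensembl mouse gene IDs, as the sensor, adaptor, proteases, pore former and cytokines of a route known for sensing asbestos, and all 10 were found. The table held 24 RNA-seq libraries of flow-sorted alveolar macrophages of C57BL/6J mice in 6 groups of 4. Siglec F-high cells came from young and old mice that were naive or had received asbestos 28 days earlier. Siglec F-low cells came from the young and old asbestos mice only. Young mice were 8 to 12 weeks old and old mice over 18 months by the sample labels, and 2 and 18 months by the series text. The labels give no transgene or deletion for any group. With no naive Siglec F-low group, asbestos and naive cells could be compared within the Siglec F-high sort only. The labels did not say whether replicates were separate mice, so p-values measure the spread between these libraries, which may be technical.

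An inflammasome is a protein platform that a macrophage assembles on meeting crystals, fibers, pore-forming toxins or bacterial lipopolysaccharide in its cytosol. Supply and activation are controlled separately: NF-kB signalling fills the cell with Nlrp3 and pro-interleukin-1 beta mRNA, and a later signal makes NLRP3 recruit the adaptor ASC (Pycard) and caspase-1, which cuts pro-interleukin-1 beta, pro-interleukin-18 and gasdermin D. The mRNA levels measured here bear on supply only, since assembly, cleavage and release of the proteins were not measured. Resident alveolar macrophages are the phagocytes of the air spaces, which carry Siglec F, and after lung injury monocytes enter and become macrophages with less of it.

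The 22 libraries without replicate 3 of young and of old asbestos Siglec F-high held 13423080 to 18124526 counts on 17069 to 18820 genes with a count, and each of the 10 genes had 267 to 5833 counts in each of them. The remaining pair stood apart. In young mice that library held 11889517 counts, spread over 12528 genes. In old mice it held 3894699 counts, 35.6% of them on Gm42418, and the 10 genes had as few as 20 counts there. Each test was therefore made with all 24 libraries and again with the 22, over 13467 and 13629 genes, and all 10 genes passed the filter on low counts in both. Levels are CPM, counts relative to the library's total, scaled by TMM over the 24 libraries. Differences are log2 fold changes ± SE from edgeR's quasi-likelihood test, and a gene was called when its Benjamini-Hochberg adjusted p over all genes tested was under 0.05. The labelled sort showed in Siglecf, the gene of the sorting marker, which averaged 420.0 and 442 CPM in young and old asbestos Siglec F-high and 265 and 173 CPM in young and old asbestos Siglec F-low.

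All 10 genes were well expressed. Per kilobase of exon and over the 22 libraries, Il18 was highest at 141 CPM per kb and Il1b next at 80.1. They lay above 97.9% and 96.1% of the 13399 tested genes with a known exon length. Casp1 (41.9), Nlrp3 (39.4), Il1a (38.0), Il1rn (32.7), Gsdmd (29.0) and Tnf (25.8 CPM per kb) followed. Pycard at 11.3 and Casp4 at 6.30 CPM per kb were lowest, Casp4 still above 58.8% of those genes. The length was that of all annotated exons of a gene merged, 3800 bases for Pycard and 1639 for Tnf, so this order depends on the annotation. By CPM, the group means of Pycard (33.0 to 49.9) lay within the range of those of Tnf (28.1 to 64.1). Across the 6 groups, Il1b group means spanned 4.37-fold, Tnf 2.28-fold, Il18 2.12-fold, Casp4 1.98-fold, Il1a 1.87-fold and Nlrp3 1.86-fold. Those of Pycard spanned 1.51-fold, and Il1rn (1.23-fold), Gsdmd (1.23-fold) and Casp1 (1.21-fold) were nearly level, all over the 22 libraries.

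**Figure D1:**
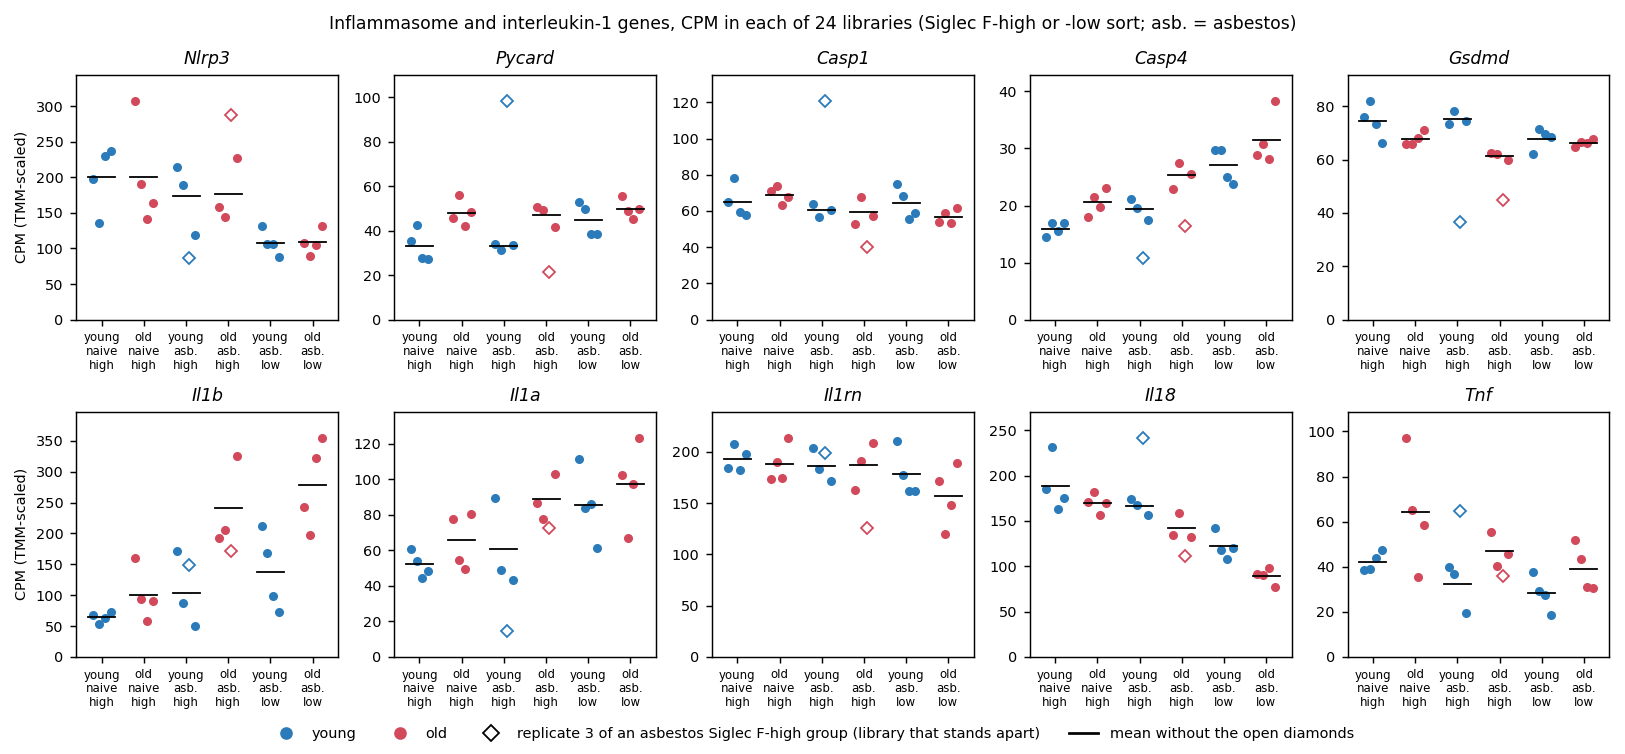
CPM of the 10 genes (y axis, linear, from 0) in each library of the 6 groups (x axis), young in blue and old in red, with black lines at group means without the open diamonds, which are replicate 3 of the asbestos Siglec F-high groups. Il1b is lowest in young naive (63.9 CPM) and highest in old asbestos Siglec F-low (279 CPM), Il18 runs the other way (189 to 89.2 CPM), and open diamonds lie far off for Pycard, Casp1 and Gsdmd.

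Caspase-1 cuts the products of both Il1b and Il18, yet old asbestos Siglec F-low cells had the highest mean of Il1b and Casp4 and the lowest of Il18. The promoters of these 3 are shown so that they can be set side by side: the 250 bases upstream of the transcription start, from RefSeq on GRCm38.p6, in gene direction. Capitals mark matches to 6 motifs searched on both strands, which were the kB consensus of NF-kB, AP-1 (TGANTCA), CRE (TGACGTCA), the PU.1 core (GAGGAA), the ISRE core and the TATA box (TATAAA). In Casp4 the capitals are 3 kB matches, 2 of them overlapping and starting 93 and 92 bases before the start, with the other at 39. In Il1b they are a TATA box 31 bases before the start, and in Il18 a TATA box letter match on the opposite strand 175 bases before it.
Il1b, chr2:129371140-129371389, minus strand: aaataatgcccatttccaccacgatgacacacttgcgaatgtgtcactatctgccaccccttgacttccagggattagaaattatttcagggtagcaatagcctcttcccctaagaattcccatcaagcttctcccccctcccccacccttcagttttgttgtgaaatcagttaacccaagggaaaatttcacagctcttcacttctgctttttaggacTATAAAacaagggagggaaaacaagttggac
Casp4, chr9:5308599-5308848, plus strand: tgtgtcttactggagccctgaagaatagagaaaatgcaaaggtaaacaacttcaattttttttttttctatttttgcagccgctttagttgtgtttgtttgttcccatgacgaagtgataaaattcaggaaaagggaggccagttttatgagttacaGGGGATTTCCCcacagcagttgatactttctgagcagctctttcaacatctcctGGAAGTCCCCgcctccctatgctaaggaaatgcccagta
Il18, chr9:50554450-50554699, plus strand: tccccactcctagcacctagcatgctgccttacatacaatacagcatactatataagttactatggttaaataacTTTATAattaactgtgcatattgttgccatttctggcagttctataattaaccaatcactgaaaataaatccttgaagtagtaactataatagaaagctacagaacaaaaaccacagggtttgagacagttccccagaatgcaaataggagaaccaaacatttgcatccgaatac
RefSeq windows were found for 9 of the 10 genes, all but Gsdmd. Nlrp3 and Casp4 had 2 windows each and Il1rn had 3, and only the first listed was searched and shown. The kB consensus was in 1 of the 9 windows (7.249% of 32817 mouse promoter windows of this length held it), the AP-1 letters in 2, Il1a and Il1rn (6.753%), and the TATA letters in 4, Il1b, Il1a, Tnf and Il18 (12.37%). The PU.1 core was in 5, Nlrp3, Pycard, Casp1, Il1a and Tnf (23.25%), while CRE (1.548%) and the ISRE core (2.968%) were in none. These matches describe letters in the window and no binding was measured.

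Between the sorts of young asbestos lungs, edgeR called 2 of the 10 genes with 24 libraries, where 4.99% of all tested genes were called, and 3 of 10 with 22 libraries (12.0% of all). Casp4 was higher and Il18 lower in Siglec F-low in both, and Pycard joined as higher with 22. Between the sorts of old asbestos lungs it called 1 of 10 in each, Il18, against 4.30% and 11.6% of all genes. Old against young called none of the 10 with 24 libraries in the naive cells (2.03% of all genes), in asbestos Siglec F-high (4.76%) or in asbestos Siglec F-low (1.29%). With 22 libraries it called 2 in the naive cells (8.03% of all), 2 in asbestos Siglec F-high (7.32%) and 1 in asbestos Siglec F-low (7.21%). Asbestos against naive called none of the 10 with 24 libraries in young (1.90% of all) or old mice (0.780%), and with 22 libraries none in young (5.06%) and 1, Il1b, in old mice (4.12%). At an unadjusted p under 0.05 the 24 libraries gave 1, 5 and 2 of 10 for age in those 3 settings, where 1164, 3538 and 1097 of the 13467 tested genes were under it. They gave 1 and 2 of 10 for asbestos in young and old mice (2646 and 1151 of all), and 3 and 3 of 10 between the sorts of young and old lungs (2788 and 2079 of all). Counts of 0 to 3 calls, or of 1 to 5 at the unadjusted p, among 10 genes were too few to set these genes apart from all genes tested.

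By the CPM alone, with 24 libraries, the groups did not overlap for 2 of the 10 genes between the sorts of young lungs, where 12.4% of all tested genes did not, and for 4 of 10 between the sorts of old lungs (16.3% of all). Those were Casp4 and Il18 in both, with Nlrp3 and Gsdmd in old lungs. Old and young did not overlap for 1 of 10 in naive cells, Casp4 (12.0% of all), for 0 of 10 in asbestos Siglec F-high (9.42%) and for 1 of 10 in asbestos Siglec F-low, Il18 (12.9%). Asbestos and naive did not overlap for 0 of 10 in young (8.49% of all) and for 2 of 10 in old mice, Il1b and Gsdmd (7.70%). The median difference of the 10 genes with 24 libraries was 0.21, 0.02 and 0.08 for age in naive, asbestos Siglec F-high and asbestos Siglec F-low cells, against -0.01, 0.04 and -0.01 over all genes. With 22 libraries it was 0.21, 0.21 and 0.09, against 0.00, 0.01 and 0.00 over all genes.

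**Figure D2:**
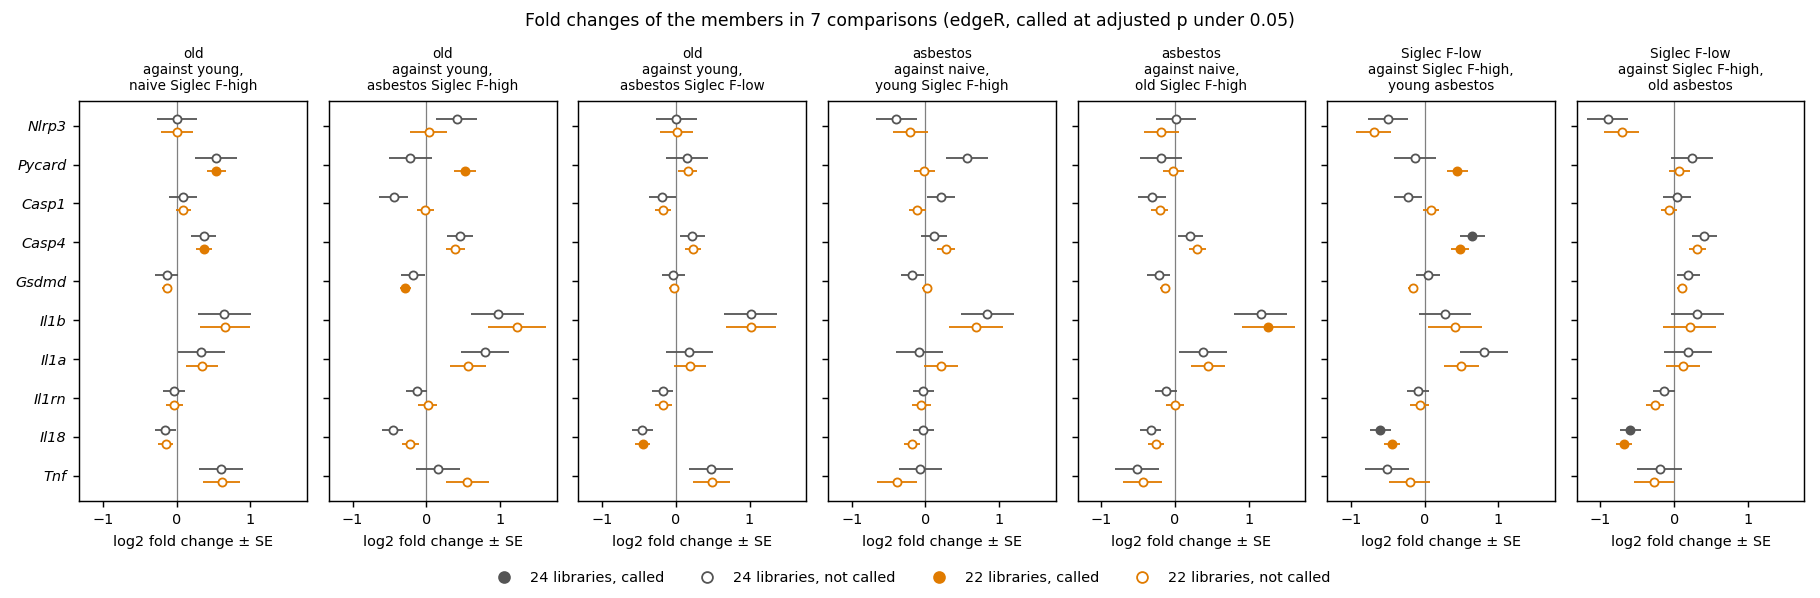
Log2 fold change (x axis) with its SE (bars) for the 10 genes (y axis) in the 7 comparisons, from 24 libraries in grey and 22 in orange; filled points were called at an adjusted p under 0.05. Il18 is called with both sets of libraries between the sorts of young and of old lungs, Casp4 with both in young lungs, and Pycard changes sign between the sets in 3 comparisons.

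Nlrp3 (ENSMUSG00000032691, mm10 chromosome 11, 59541568 to 59566956, plus strand), the sensor, had lower means in the Siglec F-low than in the Siglec F-high cells. It was at 132, 106, 106 and 88.1 CPM in young and 108, 89.1, 105 and 131 CPM in old asbestos Siglec F-low. The Siglec F-high cells had 214, 189, 87.2 (replicate 3) and 118 CPM in young and 158, 144, 287 (replicate 3) and 228 CPM in old asbestos lungs. Every old Siglec F-high library was above every old Siglec F-low library, while the young sorts overlapped. The differences did not pass the test, at -0.50 ± 0.28 in young (edgeR adjusted p 0.305 with 24 and 0.0607 with 22 libraries) and -0.90 ± 0.28 in old lungs (0.0733 with 24 and 0.0566 with 22). In the old lungs same-numbered libraries of the 22 deviated together, at correlations of 0.162 to 0.216 over 3 pairs. With the replicate number as a block Nlrp3 was called there (-0.69, edgeR adjusted p 0.0488), as was Casp4 (0.34, 0.0473). That block gave every group the same replicate terms, though only the old sorts had all pairs over 0.1, so these calls rest on a pairing not shown elsewhere. Old against young Nlrp3 was 0.01 ± 0.22, 0.03 ± 0.25 and 0.01 ± 0.22 in naive, asbestos Siglec F-high and asbestos Siglec F-low cells with 22 libraries (edgeR adjusted p 0.991, 0.971 and 0.986). With 24 libraries it was 0.00 ± 0.27, 0.41 ± 0.28 (204 against 152 CPM) and 0.01 ± 0.27 (edgeR adjusted p 1, 0.346 and 0.9998).

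Pycard (ENSMUSG00000030793, chromosome 7, 127989708 to 127993867, minus strand), the adaptor ASC, was the gene whose result rested most on single libraries. Young naive cells had 35.5, 42.5, 27.9 and 27.2 CPM and old naive cells 45.5, 56.2, 42.2 and 48.5 CPM, which overlapped only between 42.2 and 42.5. Old exceeded young by 0.53 ± 0.29 with 24 libraries (edgeR adjusted p 0.701) and 0.54 ± 0.13 with 22 (0.00973). Young asbestos Siglec F-high cells had 34.2, 31.4 and 33.4 CPM and 98.4 in replicate 3, and old ones 50.6, 49.4 and 41.6 CPM and 21.2 in replicate 3. Both of these outlying values lay on the far side of the other group. Old against young was -0.22 ± 0.29 with them (edgeR adjusted p 0.655) and 0.53 ± 0.15 without them (0.0317). Siglec F-low against Siglec F-high in young lungs was likewise -0.13 ± 0.29 with them (0.832) and 0.44 ± 0.14 without (0.0409), on 52.9, 49.6, 38.7 and 38.4 CPM in Siglec F-low. Asbestos against naive in young mice was 0.56 ± 0.29 with them (edgeR adjusted p 0.281) and -0.01 ± 0.14 without them (0.974). Over the 22 libraries the young Siglec F-high groups averaged 33.3 and 33.0 CPM and the other 4 groups 44.9 to 49.9 CPM. Pycard shares 485 exonic bases with Gm45205 on the opposite strand, whose reads cannot be told apart here because the strand setting of the counting was not given in the sources used here.

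Casp1 (ENSMUSG00000025888, chromosome 9, 5298517 to 5307265, plus strand), the protease that matures interleukin-1 beta and interleukin-18, was called in no comparison with either set of libraries. Its group means over the 22 libraries were 56.8 to 68.9 CPM. Its largest difference with 24 libraries, old against young asbestos Siglec F-high (-0.44 ± 0.19, edgeR adjusted p 0.148), was -0.01 ± 0.12 (0.973) without replicate 3 of both groups, which were at 121 CPM in young and 40.0 CPM in old.

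Casp4 (ENSMUSG00000033538, chromosome 9, 5308828 to 5336783, plus strand) lies directly downstream of Casp1 and encodes the mouse caspase that binds cytosolic lipopolysaccharide and cuts gasdermin D without NLRP3. It was at 29.7, 29.7, 25.0 and 23.7 CPM in young asbestos Siglec F-low and at 21.1, 19.5, 10.8 (replicate 3) and 17.5 CPM in young asbestos Siglec F-high. All 4 Siglec F-low libraries lay above all 4 Siglec F-high ones, and the difference was 0.65 ± 0.17 (edgeR adjusted p 0.0267) with 24 and 0.48 ± 0.12 (0.00828) with 22. It was lost without young asbestos Siglec F-low replicate 1 (0.0870) or 2 (0.0887), with no filter on low counts (0.0733) and in a fit of those 2 groups alone (0.297). In old lungs Siglec F-low had 28.9, 30.8, 28.1 and 38.4 CPM and Siglec F-high 22.8, 27.5, 16.3 (replicate 3) and 25.5 CPM. These did not overlap either, and the difference of 0.41 ± 0.17 did not pass the test (edgeR adjusted p 0.231 with 24 and 0.0891 with 22). Among naive cells the old libraries, at 18.0 to 23.03 CPM, all exceeded the young, at 14.4 to 16.99 CPM, with 0.37 ± 0.17 (0.531) with 24 and 0.37 ± 0.11 (0.0396) with 22 libraries. Group means over the 22 libraries ran from 15.95 CPM in young naive to 31.5 CPM in old asbestos Siglec F-low, and within each sort and treatment the old mean was above the young mean.

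Gsdmd (ENSMUSG00000022575, chromosome 15, 75862327 to 75867408, plus strand), whose product forms the membrane pore, varied least between replicates. Its median coefficient of variation within groups was 3.61% over the 22 libraries, against 36.6% for Il1b. Young asbestos Siglec F-high had 73.2, 78.3 and 74.5 CPM and old had 62.6, 61.9 and 59.8 CPM, so small a difference as -0.28 ± 0.07 was called without replicate 3 of both groups (edgeR adjusted p 0.0180). With them, at 36.5 CPM in young and 44.9 CPM in old, it was -0.18 ± 0.16 (0.487).

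Il1b (ENSMUSG00000027398, chromosome 2, 129364570 to 129371139, minus strand), the cytokine at the end of the route, had the widest range of the 10 genes. It was at 67.1, 52.8, 63.7 and 72.3 CPM in young naive and at 160, 93.6, 57.7 and 90.1 CPM in old naive cells. Young asbestos Siglec F-high had 172, 87.3, 148 (replicate 3) and 50.4 CPM, and old asbestos Siglec F-high 192, 205, 172 (replicate 3) and 326 CPM. Siglec F-low cells had 212, 169, 99.2 and 73.0 CPM in young and 243, 197, 322 and 355 CPM in old asbestos lungs. In rising order the group means over the 22 libraries went from young naive (63.9 ± 8.26 CPM, SD, n = 4) through old naive (100.2 ± 42.7, n = 4), young asbestos Siglec F-high (103 ± 62.3, n = 3), young asbestos Siglec F-low (138 ± 63.7, n = 4) and old asbestos Siglec F-high (241 ± 73.7, n = 3) to old asbestos Siglec F-low (279 ± 71.9, n = 4). The ranges of every pair of neighbours in that order overlapped. The libraries of old asbestos Siglec F-high all lay above those of old naive, also with replicate 3.

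In old mice Il1b differed between asbestos and naive Siglec F-high cells by 1.16 ± 0.36 with 24 libraries (edgeR adjusted p 0.185) and by 1.27 ± 0.36 with 22 (0.0473), and only the latter passed. In young mice the difference was 0.84 ± 0.36 (0.203) and 0.69 ± 0.36 (0.334). The difference of those responses between ages was 0.32 ± 0.50 (edgeR adjusted p 0.822) with 24 and 0.58 ± 0.51 (0.998) with 22 libraries, so a larger response in old mice was not shown. Old exceeded young in all 3 settings, by 0.65 ± 0.36 in naive (0.727), 0.97 ± 0.36 in asbestos Siglec F-high (0.0983) and 1.01 ± 0.36 in asbestos Siglec F-low cells (0.269), and none of these passed the test. With 22 libraries they were 0.65 ± 0.34 (0.286), 1.23 ± 0.39 (0.0578) and 1.02 ± 0.34 (0.0677). Between the sorts Il1b differed by 0.27 ± 0.36 in young (0.701) and 0.31 ± 0.36 in old lungs (0.795). Il1b shares 25 exonic bases with the antisense gene Il1bos.

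Il1a (ENSMUSG00000027399, chromosome 2, 129299610 to 129309972, minus strand), the alarmin that binds the same receptor and needs no caspase-1 to act, had nearly the group order of Il1b over a narrower range. Its means over the 22 libraries were 52.0 ± 7.05 CPM in young naive (SD, n = 4), 60.4 ± 25.2 in young asbestos Siglec F-high (n = 3), 65.6 ± 15.7 in old naive (n = 4), 85.7 ± 20.5 in young asbestos Siglec F-low (n = 4), 89.0 ± 12.6 in old asbestos Siglec F-high (n = 3) and 97.2 ± 23.3 CPM in old asbestos Siglec F-low (n = 4). It was called in none of the comparisons with 24 or 22 libraries. Replicate 3 of young asbestos Siglec F-high had 14.6 CPM, the lowest of all 24 libraries. Il1a shares 222 exonic bases with Gm14023 on the opposite strand.

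Il1rn (ENSMUSG00000026981, chromosome 2, 24336853 to 24351494, plus strand) encodes the antagonist that occupies the interleukin-1 receptor without signalling. It stayed between 157 and 193 CPM in the group means over the 22 libraries and was called in no comparison with 24 or 22 libraries, with differences of -0.18 to -0.03 with 24. The ratio of agonist to antagonist mRNA therefore moved with Il1b. Per kilobase of exon, Il1b over Il1rn was 0.967 ± 0.154 in young naive (SD, n = 4), 1.57 ± 0.755 in old naive (n = 4), 1.56 ± 0.811 in young asbestos Siglec F-high (n = 3), 2.19 ± 0.781 in young asbestos Siglec F-low (n = 4), 3.69 ± 0.751 in old asbestos Siglec F-high (n = 3) and 5.16 ± 0.935 in old asbestos Siglec F-low (n = 4). In both asbestos sorts every old library (3.11 to 6.31) had a higher ratio than every young one (0.855 to 2.93), replicate 3 of both Siglec F-high groups included. The size of the ratio, though not the order of the libraries, depends on the merged exon lengths, 1907 bases for Il1b and 5535 for Il1rn. By CPM, mean Il1b was above mean Il1rn only in old asbestos Siglec F-high (241 against 187) and Siglec F-low (279 against 157). In young naive cells it was 63.9 against 193 CPM. These ratios were taken after the separate levels were known and were not tested.

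**Figure D3:**
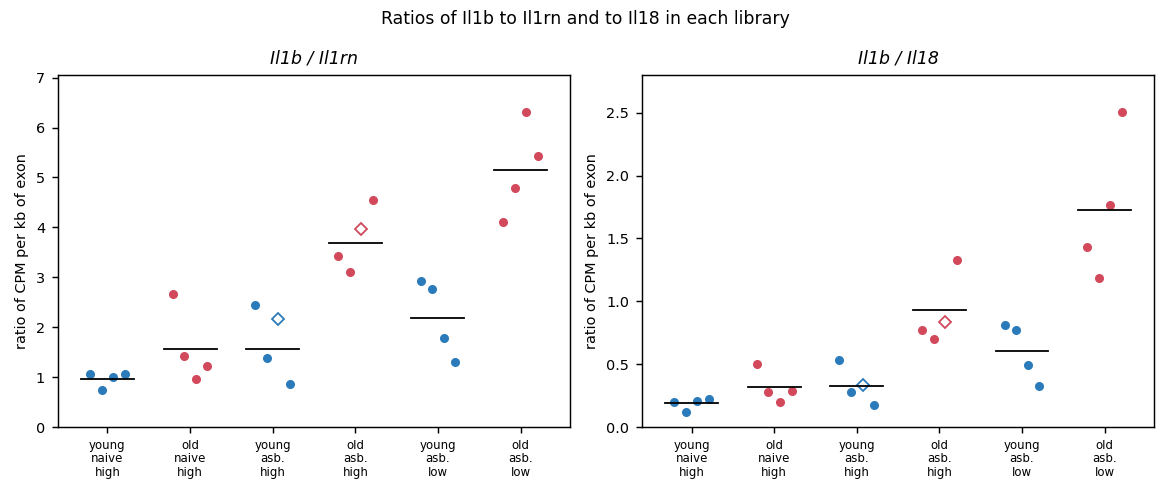
Ratio of Il1b to Il1rn (left) and to Il18 (right), each per kilobase of exon (y axis, from 0), in each library of the 6 groups (x axis), young in blue, old in red, replicate 3 of the asbestos Siglec F-high groups as open diamonds, lines at the means without them. Il1b over Il1rn is 0.967 in young naive and 5.16 in old asbestos Siglec F-low, and Il1b over Il18 is 0.188 and 1.72 there.

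Il18 (ENSMUSG00000039217, chromosome 9, 50554827 to 50581840, plus strand), whose product induces interferon gamma in lymphocytes and is kept as a precursor in resting macrophages, was lower in Siglec F-low than in Siglec F-high cells. Young asbestos Siglec F-high had 175, 167, 241 (replicate 3) and 157 CPM and young asbestos Siglec F-low 142, 118, 108 and 120 CPM. The groups did not overlap, and Siglec F-low was lower by a log2 value of -0.60 ± 0.14 (edgeR adjusted p 0.0122) with 24 and -0.45 ± 0.11 (0.00667) with 22. It lost its call without young asbestos Siglec F-low replicate 3 (0.0638) and in a fit of those 2 groups alone (0.209). Old asbestos Siglec F-high had 135, 159, 111 (replicate 3) and 133 CPM and old asbestos Siglec F-low 91.6, 90.1, 98.4 and 76.6 CPM. Here too all Siglec F-low libraries lay below all Siglec F-high libraries, with -0.60 ± 0.14 (0.0158) with 24 and -0.68 ± 0.11 (0.000156) with 22. That call was lost without old asbestos Siglec F-high replicate 2 (0.0720) or old asbestos Siglec F-low replicate 4 (0.0923).

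Within the Siglec F-low cells Il18 was lower in every old than in every young library. The difference was -0.45 ± 0.14 (edgeR adjusted p 0.158) with 24 and -0.45 ± 0.10 (0.00711) with 22 libraries, so it passed only with 22. In falling order the group means over the 22 libraries were young naive (189 ± 29.8 CPM, SD, n = 4), old naive (170 ± 10.5, n = 4), young asbestos Siglec F-high (166 ± 8.85, n = 3), old asbestos Siglec F-high (142 ± 14.4, n = 3), young asbestos Siglec F-low (122 ± 14.1, n = 4) and old asbestos Siglec F-low (89.2 ± 9.12, n = 4). Only the last pair of neighbours in that order did not overlap. The age difference of the sort difference was 0.00 ± 0.20 (0.998) with 24 and -0.23 ± 0.15 (0.884) with 22 libraries. Per kilobase, Il1b over Il18 went from 0.188 ± 0.0448 in young naive (SD, n = 4) to 1.72 ± 0.572 in old asbestos Siglec F-low (n = 4), where all 4 libraries had more Il1b than Il18 (ratios of 1.18 to 2.50). In these bulk samples fewer cells carrying a transcript and less of it per cell cannot be told apart.

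Tnf (ENSMUSG00000024401, chromosome 17, 35199381 to 35202007, minus strand), an NF-kB-driven cytokine released without an inflammasome, did not share the group order of Il1b. Its means over the 22 libraries were 64.1 ± 25.4 CPM in old naive (SD, n = 4), 47.1 ± 7.80 in old asbestos Siglec F-high (n = 3), 42.1 ± 4.14 in young naive (n = 4), 39.1 ± 10.4 in old asbestos Siglec F-low (n = 4), 32.2 ± 11.1 in young asbestos Siglec F-high (n = 3) and 28.1 ± 7.85 in young asbestos Siglec F-low (n = 4). No comparison called it with 24 or 22 libraries. Old was above young in the means of all 3 settings, by 0.61 ± 0.25 in naive cells (edgeR adjusted p 0.147), 0.56 ± 0.29 in asbestos Siglec F-high (0.294) and 0.49 ± 0.26 in asbestos Siglec F-low (0.297) with 22 libraries. With 24 libraries these were 0.60 ± 0.30 (0.594), 0.16 ± 0.30 (0.766) and 0.48 ± 0.30 (0.874).

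None of the 10 genes was called for a difference between ages in the asbestos response or in the sort difference, with 24 or with 22 libraries. In these tests edgeR called 0.00% and 0.00% of all genes with 24 and 0.0147% and 0.0147% with 22 libraries. At an unadjusted p under 0.05 they gave 0 and 0 of the 10 genes (1050 and 650 genes of all) with 24, and 0 and 1 (703 and 870 of all) with 22 libraries. That 1 was Gsdmd, at 0.26 ± 0.10 (edgeR adjusted p 0.671).

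Within a group, some of the genes were highest or lowest in the same library. In 6 of 6 groups the library with the most Il1b also had the most Nlrp3 of its group, and in 5 of 6 the library with the least Il1b had the least Nlrp3, over the 22 libraries. The library highest in Il1b was also highest in Il1a, Il1rn and Tnf in 4 of 6 groups each, in Casp1 and Casp4 in 3 of 6, in Il18 and Pycard in 2 of 6 and in Gsdmd in 1 of 6. In old naive cells, for example, replicate 1 had 160 CPM of Il1b, 307 CPM of Nlrp3 and 97.1 CPM of Tnf, and replicate 3 had 57.7, 141 and 35.6 CPM. Among the marker lists, the summed handling genes (immediate early genes such as Fos, Jun and Egr1, which rise when tissue is dissociated) were highest in the same library as Il1b in 1 of 6 groups and lowest in the same library in 3 of 6. The summed eosinophil markers were highest in that library in 5 of 6, at sums of at most 17.6 CPM, those of endothelium and fibroblasts in 4 of 6, and the neutrophil markers in 3 of 6. Genes of 1 library share its scaling and RNA, and the part of these lists in the shared order was not tested. How many of all tested genes were highest in the same library as Il1b was not counted, so these counts do not set the genes apart.

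**Figure D4:**
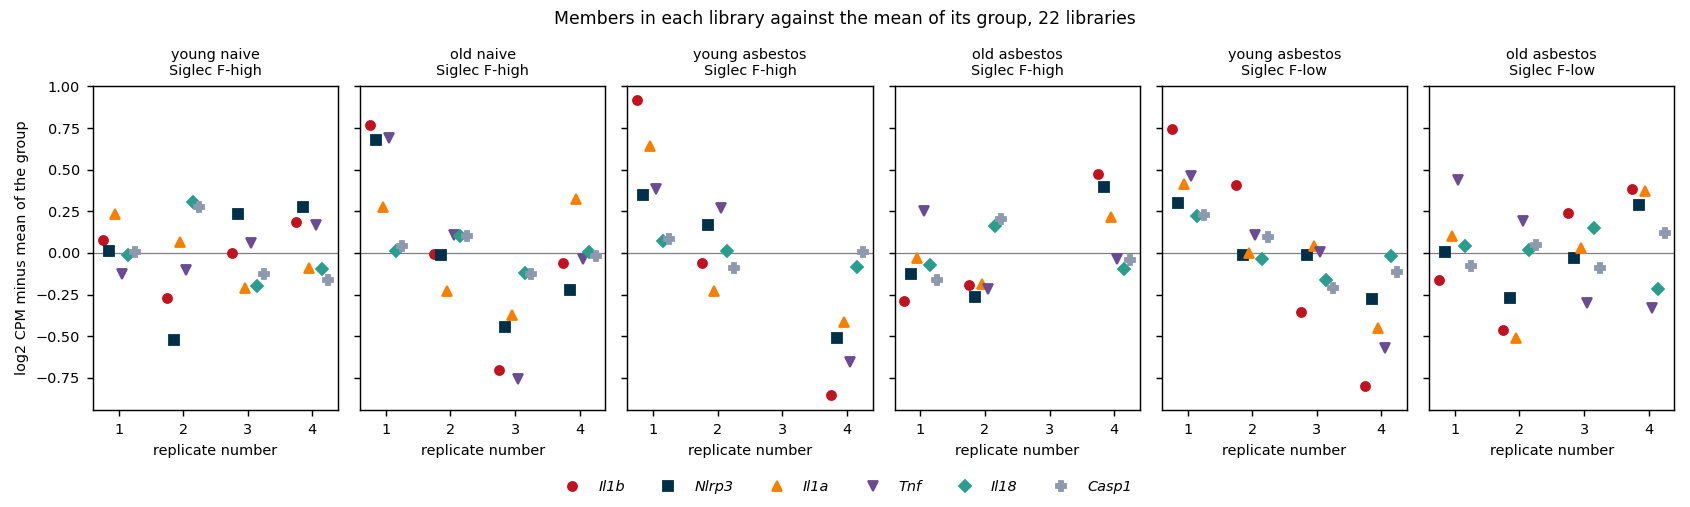
Log2 CPM minus the mean of the group (y axis) for Il1b, Nlrp3, Il1a, Tnf, Il18 and Casp1 in each of the 22 libraries, 1 panel per group, points set at their replicate number (x axis). Il1b and Nlrp3 are highest in the same library in 6 of 6 groups, and Il18 shares the library with Il1b in 2 of 6.

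The rest of the pathway was read from 4 lists chosen with earlier results of these data known. Of 26 inflammasome sensors and regulators, 22 were tested, and with 24 libraries 1 was called between old and young naive cells, Nlrx1, a NOD-like protein of mitochondria, at 195 ± 11.4 against 129 ± 10.01 CPM (SD, n = 4 and 4; 0.60 ± 0.16, edgeR adjusted p 0.0474). Between the sorts it called 1 in young and 2 in old lungs, all higher in Siglec F-low. Ninj1, whose product ruptures the membrane of a dying cell downstream of gasdermin D, was higher by 1.02 ± 0.24 in young lungs (20.8 ± 1.68 against 10.2 ± 3.06 CPM, 0.0107) and at 30.8 ± 7.05 against 14.3 ± 5.90 CPM in old lungs (0.0162). Card19 was higher by 0.59 ± 0.16 in old lungs (0.0353). Nlrp1b, the sensor of anthrax lethal factor, was higher in old than young asbestos Siglec F-high cells (0.81 ± 0.22, 0.0379), but not with the 22 libraries (0.43 ± 0.15, 0.0824). With 22 libraries the list had 7 genes higher and 0 lower in old than young naive cells, where 8.03% of all genes were called, with a median of 0.21 against 0.00 for all genes. It had 3 higher and 0 lower for age in each of the asbestos sorts (7.32% of all called in Siglec F-high and 7.21% in Siglec F-low). Between the sorts it had 3 higher and 1 lower, Nlrx1, in young (12.0% of all) and in old lungs (11.6%).

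Of 22 receptors, decoys and signalling genes of interleukin-1 and interleukin-18, 17 were tested. With 24 libraries Il1rl1, the receptor of interleukin-33, was lower in old than young naive cells at 1.22 ± 0.222 against 3.35 ± 1.22 CPM (SD, n = 4 and 4; -1.44 ± 0.35, edgeR adjusted p 0.0251). Irak2, a kinase of the interleukin-1 receptor complex, was higher in young Siglec F-low than Siglec F-high cells (0.41 ± 0.11, 0.0282) and in old than young asbestos Siglec F-high (0.43 ± 0.11, 0.0239, groups overlapping). Irak4, the kinase upstream of it, was lower in old than young asbestos Siglec F-high (-0.46 ± 0.12, 0.0359), but not with 22 libraries (-0.25 ± 0.09, 0.0966). Il18bp, the soluble decoy of interleukin-18, is added although it was picked after its values were seen. With 22 libraries it was higher in old than young cells in all 3 settings, by 1.03 ± 0.21 in naive (0.00199), 0.89 ± 0.23 in asbestos Siglec F-high (0.0208) and 0.86 ± 0.20 in asbestos Siglec F-low (0.00889). With 24 libraries none of these passed (0.390, 0.933 and 0.619). The list as a whole had 3 higher and 1 lower with 22 libraries for age in naive cells (8.03% of all genes called), 4 and 0 in asbestos Siglec F-high (7.32%) and 3 and 0 in asbestos Siglec F-low (7.21%).

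All 16 genes of TNF release, receptors and signalling were tested. Ripk3, the kinase of necroptosis, was higher in Siglec F-low than Siglec F-high cells by 1.32 ± 0.31 in young (28.8 ± 2.81 against 11.4 ± 6.13 CPM, SD, n = 4 and 4; edgeR adjusted p 0.0118) and by 1.20 ± 0.31 in old lungs (38.5 ± 5.31 against 15.9 ± 4.33 CPM; 0.0285). Both held with 22 libraries (3.75e-05 and 1.17e-05), when the list had 2 genes higher and 0 lower in each of these comparisons (12.0% and 11.6% of all genes called). Between old and young asbestos Siglec F-high cells Rhbdf2, which carries the TNF-releasing protease ADAM17 to the surface, was higher (0.52 ± 0.12, 0.0167). Birc2 was lower there with 24 (-0.61 ± 0.18, 0.0499) and not with 22 libraries (-0.27 ± 0.11, 0.155). All 24 NF-kB target genes were tested. With 24 libraries Ier3 was higher in Siglec F-low than Siglec F-high cells of young lungs (0.91 ± 0.20, 0.00608) and in old than young asbestos Siglec F-high cells (0.70 ± 0.20, 0.0465, groups overlapping), and no other gene of the list was called with 24. With 22 libraries the list had 5 higher and 0 lower in old than young naive cells (8.03% of all genes called) and 1 and 0 in each asbestos sort (7.32% in Siglec F-high, 7.21% in Siglec F-low). Between the sorts it had 3 and 0 in young (12.0% of all) and 2 and 0 in old lungs (11.6%), so apart from the naive cells these shares were near those of all genes.

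The genes whose group pattern lay nearest to those of Il18 and Casp4, the 2 genes called with 24 libraries, were found by the root mean square distance of centred log2 group means over 6 groups of the 22 libraries. For Il18 they were Ampd3 (0.0394), Rassf5 (0.0431) and Zfp41 (0.0494). For Casp4 they were Amacr (0.0387), Sil1 (0.0492) and Vwa8 (0.0539). Zfp41 and Amacr were at low levels, with group means of 1.47 to 2.78 CPM and 2.71 to 5.72 CPM. How small a distance chance alone gives among all tested genes was not tested.

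Markers of other cells were summed in each library. Neutrophils carry much Il1b mRNA, and the 10 neutrophil markers summed to 34.6 to 71.0 CPM over all 24 libraries with no group apart from the rest. Of the defining ones, Ly6g was at 0 in every library of 5 groups and averaged 0.0312 CPM in old asbestos Siglec F-low, and S100a9 was at most 2.47 CPM in any library. S100a8, which macrophages can also make, averaged 3.22 CPM in young naive and 19.96 CPM in old asbestos Siglec F-low, as Il1b also was lowest and highest there. Retnlg went from 1.58 to 9.79 CPM and Mmp9 from 0.88 to 3.001 CPM between the same groups, lowest and highest there too. Csf3r, which held most of the sum in young naive cells, went from 42.0 to 9.05 CPM. Of 6 neutrophil markers tested with 22 libraries, edgeR called 3 higher and 0 lower in old than young asbestos Siglec F-high (7.32% of all genes). In naive cells it called 1 and 1 (8.03%), in asbestos Siglec F-low 0 and 0 (7.21%). Between the sorts it called 2 and 1 in young (12.0%) and 1 and 0 in old lungs (11.6%). With 24 libraries it called 0 higher in these (4.76%, 2.03%, 1.29%, 4.99% and 4.30% of all). It then called 1 lower each in naive cells and between the young sorts. The 6 eosinophil markers had median sums of 0.628 CPM in young naive, 1.83 in old naive, 2.68 in young and 5.57 in old asbestos Siglec F-high (without replicate 3), 3.87 in young and 12.2 CPM in old asbestos Siglec F-low. This is the order of the Il1b group means over the 22 libraries, with Prg3 at 0 in every library of 5 groups and Epx at 0 in old naive and young Siglec F-low cells. The 8 markers of endothelium and fibroblasts summed to 110 to 144 CPM in the naive groups, 149 to 221 CPM in asbestos Siglec F-high without replicate 3, 241 to 277 CPM in young and 193 to 327 CPM in old asbestos Siglec F-low. The part of these 3 lists in the differences of Il1b and the other genes was not tested. The 9 monocyte markers summed to 664 to 1876 CPM in the naive groups, and most of this was Fn1, which macrophages also make. In asbestos Siglec F-high without replicate 3 they summed to 2333 to 2983 CPM in young and 1992 to 2150 CPM in old. Replicate 3 was at 903 CPM in young and 3801 CPM in old. Siglec F-low libraries had sums of 3201 to 3840 CPM in young and 4251 to 5859 CPM in old asbestos lungs. The sum was higher in Siglec F-low cells, where Il18 was lower and Casp4 higher in the means. With 24 libraries edgeR called 0 of the 9 between the sorts of young lungs (4.99% of all genes called). It called 1 higher and 1 lower between those of old lungs (4.30%), so not every marker was higher in Siglec F-low. Treml4, for example, averaged 16.7 CPM in old Siglec F-high and 7.68 CPM in old Siglec F-low. For age with 22 libraries it called 1 of the 9 higher in old naive cells (8.03% of all genes called) and 3 in old asbestos Siglec F-high (7.32%). In old asbestos Siglec F-low it called 5 higher (7.21%), with 0 lower in each setting. With 24 libraries these counts were 0, 2 and 0 higher (2.03%, 4.76% and 1.29% of all genes called). The part of this list in the differences between sorts and between ages was not tested. The 10 markers of resident alveolar macrophages were all detected, at sums of 16891 to 68918 CPM. Most of the sum was Chil3, which averaged 11748 CPM in young naive and 53837 CPM in old asbestos Siglec F-low. The list did not move as 1 between the sorts. With 24 libraries edgeR called 1 marker higher and 2 lower in Siglec F-low of young lungs (4.99% of all genes called). In old lungs it called 1 higher and 1 lower (4.30%). The list includes Siglecf, the gene of the sorting marker, whose difference between the sorts follows from the sorting. The 17 handling genes summed to 10412 to 11028 CPM in young naive and 8805 to 10933 CPM in old naive cells, and to 6760 to 8925 CPM in the asbestos groups. Nlrp3 and Tnf means were also higher in naive than in Siglec F-low cells, and the part of handling in them was not tested.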

How the data were processed

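RNA-seq libraries were made from 30 ng of total RNA of sorted lung macrophages by poly(A) selection and a NEBNext Ultra kit and read on a NextSeq500, per the labels' protocols. The submitters' processing notes name bcl2fastq 2.19.1, FastQC, Trimmomatic 0.36, STAR 2.6.0, HTSeq 0.11.2 and the build mm10. Neither the annotation nor the strand setting was given in the sources used here. The authors deposited raw read counts per Ensembl gene ID for 24 libraries, and 42462 of 43430 IDs were paired with a symbol. The 10 genes, the 4 pathway lists and the marker lists were chosen with earlier results of these data known.

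Counts were tested with edgeR 4.0.16 in R 4.3.3 (filterByExpr by group minimum count 10, minimum total 15, TMM factors, quasi-likelihood F test) in 1 fit of all 6 groups, with Benjamini-Hochberg adjustment and a threshold of 0.05. The same fit was made without replicate 3 of both asbestos Siglec F-high groups. The procedure was tested on simulated data with the same spread for every gene and no outlying library, which does not cover the libraries that stood apart. DESeq2 1.42.0, limma 3.58.1 (voom with quality weights), DESeq2's size factors, no filter, the compared groups alone, a replicate block and leaving out each library were alternatives. Replicate numbers paired the libraries only between the sorts of old lungs, with 22 libraries, where correlations of deviations were 0.162 to 0.216 over 3 pairs. Elsewhere not every pair was over 0.1, yet the replicate block gave all groups of a fit the same replicate terms. Named were all 10 genes, at most 3 called genes without overlap per list and comparison (Irak2 and Ier3 in old against young asbestos Siglec F-high overlapped), and the 3 genes nearest in pattern to up to 3 of the genes with most calls. Exon lengths and positions came from GENCODE M21 (GRCm38, the same build as mm10), and promoters from RefSeq. Counts of this size limit the precision of high genes little, and the replicate spread more.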

Additional observations from a re-analysis of the deposited data

Results flagged for a closer look

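In 4 of 60 sets of 4 libraries (10 genes in 6 groups), 1 library lay further from the rest than Dixon's critical value allows, and chance alone gives about 1 in 20. All 4 lay in the pair of asbestos Siglec F-high libraries numbered 3. In young asbestos Siglec F-high replicate 3, Pycard was at 98.4 CPM where the other libraries had 31.4 to 34.2, Casp1 at 121 CPM where they had 56.7 to 64.0, and Gsdmd at 36.5 CPM where they had 73.2 to 78.3. In old asbestos Siglec F-high replicate 3, Gsdmd was at 44.9 CPM where the others had 59.8 to 62.6.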

How the results depend on the processing

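Of 2880 fold changes of the 10 genes under 32 alternatives, 2823 kept their side of the threshold. Of these, 113 changed sign with no call on either side. Another 43 gained and 8 lost a call, and 6 reversed. With 24 libraries only Il18 between both pairs of sorts and Casp4 between the young sorts were called. Most of the 2823 were therefore values with no call on either side. Each of those calls was lost under more than 1 alternative. The reversals were all Pycard: old against young asbestos Siglec F-high at 0.53 (22 libraries), 0.52 (22 with the replicate block) and 0.52 (limma voom with quality weights), and Siglec F-low against Siglec F-high in young lungs at 0.44, 0.49 and 0.35. The number of the 10 genes called was 0 for old against young naive cells and 2 with 22 libraries, 2 with these and the replicate block, and 2 with limma voom. For old against young asbestos Siglec F-high it was 0, and 2 with 22 libraries, 4 with the block added, 2 with DESeq2, 5 with limma voom, and 0 to 4 leaving out 1 library, the 4 being Casp4, Il1b, Il1a and Il18 without young replicate 1. For old against young asbestos Siglec F-low it was 0, and 1 with 22 libraries, 2 with the block added, 2 in those groups alone, 2 with limma voom and 0 to 1 leaving out 1 library; the 2 were Il1b and Il18 each time. For asbestos against naive in old mice it was 0, and 1, Il1b, with 22 libraries, with the block added and with limma voom. It was 0 under each alternative for asbestos against naive in young mice and for both age differences. Between the sorts of young lungs it was 2, and 1 with no filter, 4 with 22 libraries and the block, 0 in those groups alone, 4 with limma voom and 1 to 3 leaving out 1 library. Between the sorts of old lungs it was 1, and 3 with 22 libraries and the block, 2 with DESeq2, 3 with limma voom and 0 to 2 leaving out 1 library, 0 without old Siglec F-high replicate 2 or old Siglec F-low replicate 4 and 2 (Nlrp3 and Il18) without young Siglec F-high replicate 3. The replicate block on all 24 libraries changed no count. Of 120 group means under other scalings, 7 moved by over 1 SD. The cause of these changes was not tested.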
